A study of Mus musculus with 15 samples.

Results

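CREB, the transcription factor encoded by Creb1, and its coactivators encoded by Crtc1, Crebbp and Ep300 were followed in cortical RNA of mice, at 1 month after Sham treatment or high-frequency head impact (HF-HI). Every listed transcript whose gene name in the GENCODE M21 annotation is one of these 4 genes was taken, which gave 6 of 10370 listed transcripts and 4 of 7740 genes. Creb1 had 2 listed transcripts of 11 annotated, Crtc1 had 2 of 5, Crebbp had 1 of 8 and Ep300 had 1 of 10. All animals were male mice, C57BL/6 in the labels and C57Bl/6J in the study's methods, labelled as 12 weeks old with no transgene, and the tissue was dissected cortex. The 8 HF-HI libraries come from mice that received daily bouts of head impacts under isoflurane anesthesia, and the 7 Sham libraries come from mice that were handled and anesthetized likewise and were not hit. Whether each library is a separate animal is not stated in the labels, so p-values measure the spread between these libraries.

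CREB binds cAMP response elements in the promoters of activity-regulated genes. Kinases driven by calcium and cAMP phosphorylate it, and the phosphorylated form recruits the histone acetyltransferases CBP (Crebbp) and p300 (Ep300). CRTC1 is a coactivator held in the cytoplasm by salt-inducible kinases; calcineurin dephosphorylates it during synaptic activity, and it then enters the nucleus and binds CREB. In the cortex this pathway is known for coupling synaptic activity to the immediate early genes, of which Fos and Arc are used here as readouts.

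The listed Creb1 transcripts differ by a coding exon, at the 5′ end and by the length of the 3′ end. The division of reads between these transcripts is the main difference described below. The junction sequences are shown to mark the coding exon, and reads across the junctions were not counted here. Creb1-201 (ENSMUST00000049932, chromosome 1, 64532809 to 64601257, plus strand, GRCm38) has 9 exons and 5009 bases. Creb1-202 (ENSMUST00000087366, 64532819 to 64604548) has 8 exons and 8364 bases. Exon 4 of Creb1-201 (chromosome 1, 64559727 to 64559768) has 42 bases, or 14 codons, and Creb1-202 skips it, so the coding sequences hold 341 and 327 codons. The form with this exon is known as CREB alpha and the form without it as CREB delta. In the first sequence the cassette exon is in capitals between 30 bases of each neighbouring exon, and in the second the capitals are the last and first base at the joined exons.
Creb1-201: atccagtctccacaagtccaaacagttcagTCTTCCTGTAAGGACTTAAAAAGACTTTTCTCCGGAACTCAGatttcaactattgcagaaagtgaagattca
Creb1-202: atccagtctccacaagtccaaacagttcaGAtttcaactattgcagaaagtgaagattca
Both sequences were read from the GRCm38 genome.

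The 3′ UTR has 3882 bases in Creb1-201 and 7173 in Creb1-202, the latter running on through 64601258 to 64604548 (3291 bases). The transcripts share 4957 bases. Only 52 bases of Creb1-201 (1.04%) are its own, against 3407 of Creb1-202 (40.7%). Of the 3407 bases, 3291 are the 3′ extension, so the division of reads does not measure use of the coding exon alone. Most reads on Creb1-201 also match Creb1-202 and were assigned by the authors' estimation. The listed Crtc1 transcripts (chromosome 8, 70382355 to 70439579, minus strand) differ in a similar way. Crtc1-201 (ENSMUST00000076615) codes for protein and has 5683 bases, of which 108 are its own. Crtc1-204 (ENSMUST00000142769) is annotated as a retained intron transcript of 10265 bases, of which 4690 (45.7%) are the intron from 70393056 to 70397745.

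**Figure D1:**
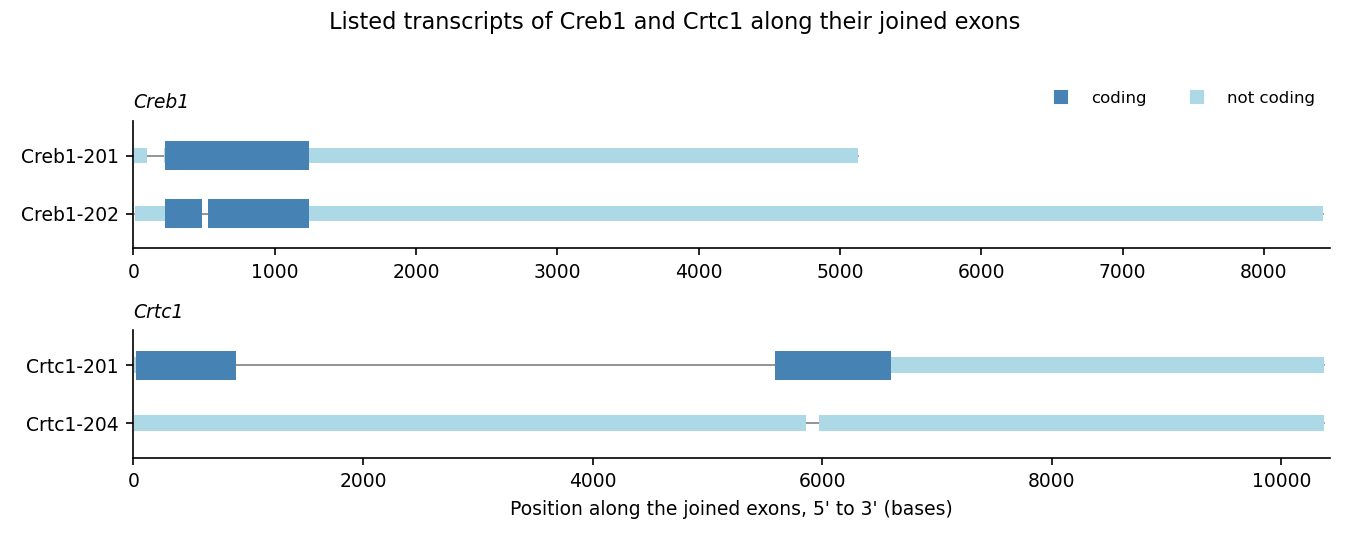
Listed transcripts of Creb1 (top) and Crtc1 (bottom) along their joined exons in bases, 5′ to 3′, with coding parts as tall dark boxes, other exon parts as low light boxes and gaps where a transcript lacks the exon bases of the other. Creb1-202 lacks the 42-base coding exon and extends past the end of Creb1-201, and Crtc1-204 holds an intron of 4690 bases.

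Crebbp (ENSMUST00000023165, chromosome 16, 4081328 to 4213997, minus strand, 10820 bases) and Ep300 (ENSMUST00000068387, chromosome 15, 81585397 to 81652077, plus strand, 9566 bases) had a single listed transcript each, which codes for protein. The annotation places Gm37186 within the span of Crebbp and Gm23880 and Gm22067 within that of Ep300, on the same strand, and these were not analysed here.

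Values below are normalized counts, obtained by inverting the variance-stabilizing transformation of the deposited values (VSD), and each SD is taken within a group (7 Sham, 8 HF-HI). A single read was worth 0.679 to 1.997 normalized counts, and the reads in listed transcripts numbered 5798810 to 10582858 in Sham and 3496103 to 8666307 in HF-HI libraries. HF-HI replicate 2 stood apart on the first principal component (12.6, others −3.35 to 0.721, 14.3% of the variance). All 10 of 10 markers of cortical glutamatergic neurons were listed, with summed normalized counts of 9921 to 11549 in Sham and 10000 to 11447 in HF-HI libraries. Of 10 striatal markers 8 were listed, with sums of 7110 to 10830 in Sham and 5063 to 10294 in HF-HI libraries, and Drd2 and Gpr6 were not analysed here. Of 8 choroid plexus markers 2 were listed, Ttr and Enpp2, and their sum was highest in HF-HI replicate 2 at 13832. In bulk tissue, fewer cells of a type and less RNA per cell cannot be told apart.

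For none of the 4 genes was a difference in the summed level between HF-HI and Sham detected beyond the spread between libraries. None of the 4 gene sums reached an unadjusted p under 0.05, against 9.94% of all 7740 genes, and 0.00% of them had an adjusted p under 0.1 (limma, smallest Benjamini-Hochberg adjusted p = 0.109). Creb1, the factor itself, had summed values of 592, 739 and 777 normalized counts (lowest, median and highest) in Sham and of 614, 648 and 823 in HF-HI. The groups overlapped, and the log2 difference was −0.06 with a 95% interval of −0.21 to 0.10 (limma unadjusted p = 0.446). Crtc1, the calcium-responsive coactivator, ran from 661 through 736 to 801 in Sham and from 651 through 713 to 755 in HF-HI. Here 3 Sham libraries lay above every HF-HI library, and the log2 difference was −0.05 (−0.15 to 0.04, limma unadjusted p = 0.257).

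Crebbp, which encodes CBP, had 1121, 1251 and 1336 normalized counts among Sham and 1002, 1255 and 1354 among HF-HI libraries. Its log2 difference was 0.00 (−0.11 to 0.12, limma unadjusted p = 0.937), with 5 of 8 HF-HI libraries above the Sham median. Ep300, which encodes the paralogous acetyltransferase p300, had 591, 633 and 702 in Sham and 615, 675 and 785 in HF-HI. It was above the Sham median in 7 of 8 HF-HI libraries, and its log2 difference was 0.10 (−0.01 to 0.20, limma unadjusted p = 0.0780, adjusted p = 0.549). Without Sham replicate 4 the Ep300 difference was 0.12 (limma unadjusted p = 0.0330), and without HF-HI replicate 2 it was 0.12 (limma unadjusted p = 0.0322). Without HF-HI replicate 4, which held the highest Ep300 value, it was 0.07 (limma unadjusted p = 0.166). It was 0.06 with the log2 size factor as a covariate (limma unadjusted p = 0.325) and 0.08 with the log2 striatal marker sum (limma unadjusted p = 0.202).

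**Figure D2:**
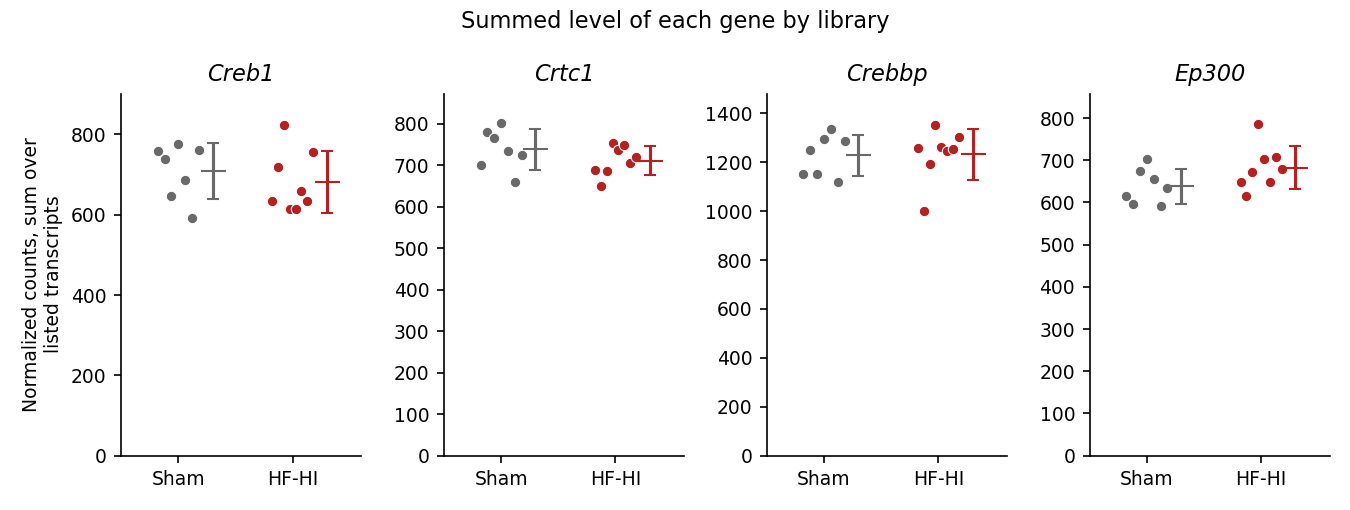
Normalized counts summed over the listed transcripts of Creb1, Crtc1, Crebbp and Ep300, with a point per library and the group mean ± SD as a bar beside the points (7 Sham, 8 HF-HI, axes from 0). The groups overlap for each gene, and the low HF-HI point of Crebbp at 1002 is HF-HI replicate 2.

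Per kilobase of transcript, the levels in Sham were 117 ± 8.30 normalized counts for Crtc1, 113 ± 7.83 for Crebbp, 106 ± 13.4 for Creb1 and 66.7 ± 4.29 for Ep300 (SD, n = 7). The first 3 of these overlapped in their ranges over libraries, while the Ep300 range of 61.8 to 73.4 lay below the lowest library of the others (85.8 for Creb1). In HF-HI the levels were 114 ± 9.67 for Crebbp, 113 ± 19.3 for Creb1, 111 ± 7.18 for Crtc1 and 71.3 ± 5.38 for Ep300 (SD, n = 8), with the same overlap and with Ep300 again below. The Creb1 and Crtc1 levels per kilobase depend on how reads were divided between transcripts of unlike length. For Creb1 the mean per kilobase was higher in HF-HI, while the mean of the summed counts was lower (708 in Sham, 682 in HF-HI). On this scale Fos stood at 112 ± 41.3 in Sham and Arc at 621 ± 214. The within-group SD of the log2 sum was 0.15 for Creb1, 0.08 for Crtc1, 0.12 for Crebbp and 0.10 for Ep300, beside a median of 0.12 over all genes. Counting error alone gives 0.06, 0.06, 0.04 and 0.06 for these genes.

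The transcripts of Creb1 differed in opposite directions at the unadjusted level. At an unadjusted p under 0.05, 2 of the 6 member transcripts differed between the groups, both of Creb1, against 8.83% of all 10370 transcripts, and 0.00% of transcripts had an adjusted p under 0.1 (limma, smallest adjusted p = 0.206). Creb1-201, the form with the cassette exon, had 141, 277 and 398 normalized counts (lowest, median and highest) in Sham and 176, 385 and 699 in HF-HI. The Sham mean was 261 ± 93.0 and the HF-HI mean 395 ± 156, with a VSD difference of 0.17 (limma unadjusted p = 0.0479, adjusted p = 0.561), and 3 HF-HI libraries exceeded the Sham range. On the VSD scale a doubling is 0.27 from 200 normalized counts, 0.33 from 300 and 0.41 from 500.

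Creb1-202, the form without the exon, had 287, 458 and 554 normalized counts among Sham and 20.0, 309 and 438 among HF-HI libraries. The Sham median exceeded all 8 HF-HI values, and 3 of them fell short of every Sham library. The Sham mean was 448 ± 87.4 and the HF-HI mean 287 ± 129, with a VSD difference of −0.22 (limma unadjusted p = 0.0268, adjusted p = 0.514). The lowest value, 20.0, was that of HF-HI replicate 2, and without this library the difference was −0.14 (limma unadjusted p = 0.0105). Without Sham replicate 2 the difference of Creb1-202 was −0.20 and passed no threshold (limma unadjusted p = 0.0526). The call of Creb1-201 was lost on leaving out any of 11 of the 15 libraries, namely Sham replicates 1, 2, 3, 4 and 6 and HF-HI replicates 1, 2, 3, 4, 7 and 8, with limma unadjusted p of 0.0501 to 0.107 and differences of 0.12 to 0.18. Neither call held on the scale of log2(normalized counts + 1), where the difference was −0.96 for Creb1-202 (limma unadjusted p = 0.0812) and 0.58 for Creb1-201 (limma unadjusted p = 0.0522), or with voom on recovered reads (limma unadjusted p = 0.0875 and 0.114).

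**Figure D3:**
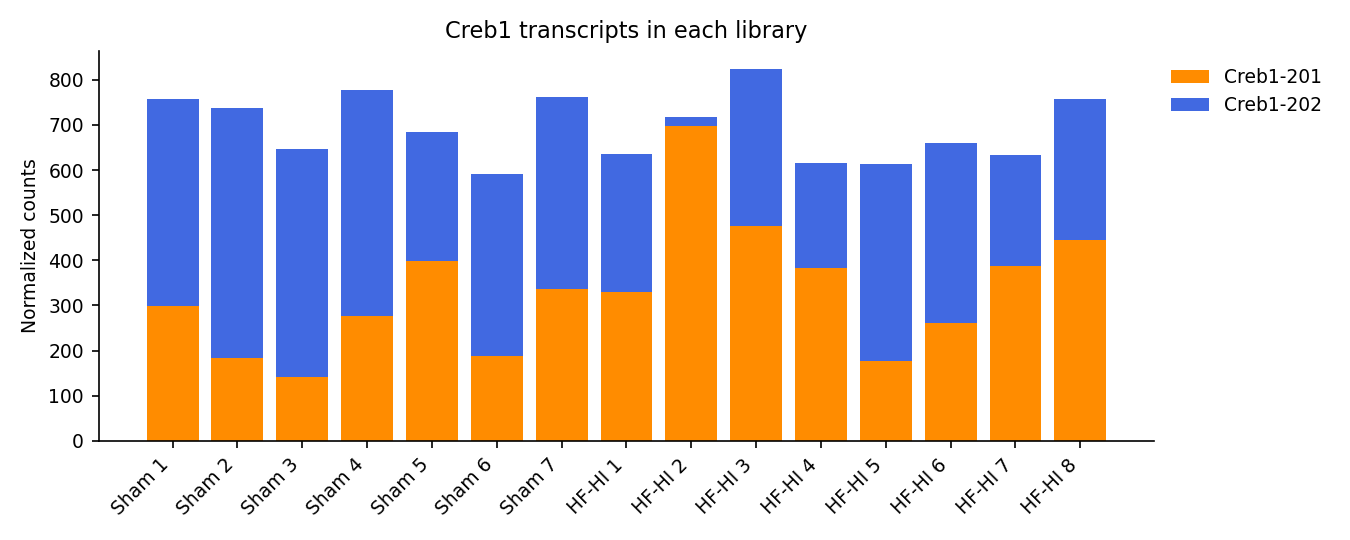
Normalized counts of Creb1-201 (orange) and Creb1-202 (blue) stacked for each of the 15 libraries, so that the full bar is the Creb1 sum. The full bars lie between 592 and 823, while the blue part ranges from 20.0 in HF-HI replicate 2 to 554 in Sham replicate 2.

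The share of Creb1 reads assigned to Creb1-202 was 41.9%, 64.4% and 78.3% (lowest, median and highest) in Sham and 2.78%, 41.7% and 71.4% in HF-HI. In HF-HI, 4 of 8 libraries lay below the Sham range and 7 of 8 below the Sham median, so the groups overlapped in part. The mean share was 63.4% ± 12.3 in Sham and 42.8% ± 20.0 in HF-HI (SD, n = 7 and 8), a difference of −20.6 percentage points (exact two-sided permutation over 6435 splits, p = 0.0283). Each share rests on 308 to 1145 Creb1 reads. In HF-HI replicate 2, 13 of 467 Creb1 reads were assigned to Creb1-202 (95% Wilson interval 1.63 to 4.70%, counting error only). Without that library the difference was −14.9 points (exact permutation p = 0.0484). It was −18.7 without Sham replicate 2 (exact permutation p = 0.0576) and −18.2 without Sham replicate 3 (exact permutation p = 0.0623).

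As a log2 ratio of Creb1-202 to Creb1-201, tested among 4140 such transcript ratios, the difference was −1.53 with a 95% interval of −3.08 to 0.01 (limma unadjusted p = 0.0517, adjusted p = 0.730). None of the 4 member ratios reached an unadjusted p under 0.05, against 6.30% of all ratios. The 2 ratios of a gene with 2 listed transcripts mirror each other and have the same p, so they are not separate results. The ratio came to −0.91 and passed that level without HF-HI replicate 2 (limma unadjusted p = 0.0352), and did so as well without Sham replicate 5 (−1.75), HF-HI replicate 5 (−1.82) or HF-HI replicate 6 (−1.72). Within groups the SD of this log2 ratio was 1.49, where counting error gives 0.16. Among the 1130 genes with 2 listed transcripts the median SD was 0.55, and 10.4% had a larger one than Creb1. Without HF-HI replicate 2 the SD was 0.77, the median 0.52 and the share with a larger SD 30.5%. Across the 15 libraries Creb1-201 and Creb1-202 were negatively correlated (r = −0.70, permutation p = 1.6e-04; rho = −0.78, permutation p = 9.1e-04), with r = −0.64 in Sham, −0.72 in HF-HI and −0.72 without the 2 libraries farthest from the median. Both values come from the same reads, divided between the transcripts.

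The Creb1 division was set beside depth and striatal markers. The Creb1-202 share had r = 0.46 with the log2 size factor of the library (permutation p = 0.0840; rho = 0.40, permutation p = 0.138), but the sign differed within groups, with r = −0.68 in Sham (exact permutation p = 0.0968) and 0.50 in HF-HI (exact permutation p = 0.213). The Creb1-202 share had r = 0.59 with the summed striatal markers, a description over 15 libraries. The striatal sum averaged 9081 in Sham and 7515 in HF-HI libraries. With the log2 size factor as a covariate the VSD difference was −0.13 for Creb1-202 (limma unadjusted p = 0.229) and 0.16 for Creb1-201 (limma unadjusted p = 0.118). With the log2 striatal marker sum as a covariate, added after seeing the data, these were −0.17 (limma unadjusted p = 0.116) and 0.09 (limma unadjusted p = 0.296).

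The Crtc1 transcripts showed smaller differences than their spread. Crtc1-201, the coding form, had 495, 571 and 630 normalized counts among Sham and 452, 532 and 609 among HF-HI libraries, with a VSD difference of −0.04 (−0.10 to 0.01, limma unadjusted p = 0.104). Crtc1-204, which retains the intron, had 128, 166 and 203 in Sham and 129, 190 and 214 in HF-HI, with a VSD difference of 0.03 (−0.02 to 0.09, limma unadjusted p = 0.242). The coding form took 77.7% ± 4.05 of Crtc1 reads in Sham and 74.2% ± 4.44 in HF-HI (exact two-sided permutation p = 0.138). Without HF-HI replicate 5 this share differed by −4.65 percentage points (exact permutation p = 0.0355), and the level of Crtc1-201 passed the unadjusted level without Sham replicate 6 (−0.06, limma unadjusted p = 0.0381) or without HF-HI replicate 5 (−0.05, limma unadjusted p = 0.0410). The SD of the Crtc1 log2 ratio was 0.35, below the median of 0.55 for genes with 2 listed transcripts. The 2 Crtc1 transcripts correlated at r = −0.60 across libraries (permutation p = 0.0181; rho = −0.70, permutation p = 0.00532), and r was −0.47 without the 2 libraries farthest from the median. They share 5575 bases, so here too the same reads were divided between the transcripts, which the permutation does not take into account.

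Fos and Arc, the activity-regulated readouts of the pathway, had higher levels in HF-HI at the unadjusted level. Fos (ENSMUST00000021674), a subunit of the AP-1 transcription factor, had 58.1, 242 and 337 normalized counts among Sham and 296, 390 and 580 among HF-HI libraries, a log2 difference of 0.89 (0.31 to 1.47, limma unadjusted p = 0.00470, adjusted p = 0.283). Arc, which encodes a postsynaptic protein that regulates AMPA receptor endocytosis, had sums of 695, 1928 and 2602 in Sham and 2596, 3151 and 3890 in HF-HI over ENSMUST00000023268 and ENSMUST00000110009. Its log2 difference was 0.84 (0.40 to 1.29, limma unadjusted p = 8.7e-04, adjusted p = 0.192). For either gene 7 of 8 HF-HI libraries exceeded every Sham library, and the lowest library was Sham replicate 2.

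The promoter of Fos is shown because Fos is the readout used here and its promoter is known to bind CREB. It spans chr12:85473640-85473939 on the plus strand of GRCm38 (250 bases before to 50 after the start, from RefSeq on GRCm38.p6), and the capitals mark the CREB half-site TGACG.
Fos promoter: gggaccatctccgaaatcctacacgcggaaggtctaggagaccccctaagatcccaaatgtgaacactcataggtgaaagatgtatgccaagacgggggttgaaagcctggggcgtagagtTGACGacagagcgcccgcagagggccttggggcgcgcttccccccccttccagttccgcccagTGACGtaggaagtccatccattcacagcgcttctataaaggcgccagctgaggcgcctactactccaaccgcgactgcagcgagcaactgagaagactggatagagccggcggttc
The half-sites lie 129 to 125 and 66 to 62 bases upstream of the start. TGACG or its reverse complement CGTCA occurred in 20.8% of 32851 RefSeq promoters of this length, and the full site TGACGTCA, which contains the half-site, in 1.79%. The single promoter of each of Creb1, Crtc1, Crebbp and Ep300 in the same table held neither within this window. Of 21 promoters matched to 19 listed genes of the CREB target list, 17 held the half-site and 5 the full site; that list was written as CREB targets, so these counts are not independent of it.

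Across the 15 libraries no slope of a member gene on Fos or Arc was detected once group was a term in the fit. In a fit of each log2 gene sum on log2 Fos with group as a term, 0 of 4 member genes reached an unadjusted p under 0.05, against 2.36% of 7739 genes. On log2 Arc it was again 0 of 4, against 3.14%. The slopes on Fos, in log2 units per log2 unit, were −0.05 for Creb1 (−0.18 to 0.09, limma unadjusted p = 0.465), −0.02 for Crtc1 (−0.10 to 0.07), 0.01 for Crebbp (−0.10 to 0.12) and 0.06 for Ep300 (−0.04 to 0.15, limma unadjusted p = 0.220). On Arc they were −0.04 for Creb1 (−0.22 to 0.14), 0.00 for Crtc1 (−0.11 to 0.12), 0.03 for Crebbp (−0.11 to 0.17) and 0.08 for Ep300 (−0.04 to 0.20, limma unadjusted p = 0.166). In the same fit the slope of Arc on Fos was 0.71 (0.56 to 0.87, limma adjusted p = 2.3e-04). This slope includes Sham replicate 2, and its value without that library or within each group alone is not given here. Without Sham replicate 2, the library lowest in Fos and Arc, the slopes on Fos were −0.11 for Creb1, 0.11 for Crtc1, 0.15 for Crebbp and 0.08 for Ep300 (lowest limma unadjusted p = 0.230). On Arc they were −0.01, 0.19 (limma unadjusted p = 0.0572), 0.20 (limma unadjusted p = 0.135) and 0.12 without it. None of the 6 member transcripts passed the unadjusted level on Fos or Arc, against 3.08% and 3.55% of transcripts.

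Without the group term, Ep300 was the member gene with slopes past the unadjusted level, of 0.08 on Fos (limma unadjusted p = 0.0409) and 0.10 on Arc (limma unadjusted p = 0.0252). Such slopes include any difference between the groups. The share of all genes past that level in this fit is not given here, so the call cannot be set against it. Its correlation with Arc over the 15 libraries was r = 0.56 (permutation p = 0.0316) and rho = 0.60 (permutation p = 0.0207), and r was 0.52 without the 2 libraries farthest from the Arc median. Within groups it was 0.58 in Sham (exact permutation p = 0.161) and 0.16 in HF-HI (exact permutation p = 0.726), and −0.22 in HF-HI without replicate 2. With Fos, Ep300 had r = 0.52 (permutation p = 0.0537) and rho = 0.50 (permutation p = 0.0610), with 0.57 in Sham and 0.03 in HF-HI, and −0.15 in HF-HI without replicate 2. Creb1 had r = −0.27 with Fos (permutation p = 0.366) and −0.22 with Arc (permutation p = 0.455), and within HF-HI −0.64 (exact permutation p = 0.0894) and −0.66 (exact permutation p = 0.0795). Crtc1 and Crebbp lay between −0.29 and 0.11 with either readout over all libraries. Without the 2 libraries farthest from the readout's median, 1 of which is Sham replicate 2, Crtc1 had r = 0.21 with Fos and 0.22 with Arc, and Crebbp 0.23 and 0.54. Within HF-HI both had r = 0.56 with Arc (exact permutation p = 0.146 and 0.151), and 0.29 and 0.14 without HF-HI replicate 2.

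The share of Creb1-202 had r = −0.38 with log2 Fos (permutation p = 0.139) and −0.36 with log2 Arc (permutation p = 0.183), while within HF-HI these were 0.37 and 0.58 (exact permutation p = 0.345 and 0.123), and both were 0.26 without HF-HI replicate 2. The 8 relations of gene sums to Fos and Arc belong to 14 that were computed, the other 6 being between member genes, and no p was adjusted over them.

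**Figure D4:**
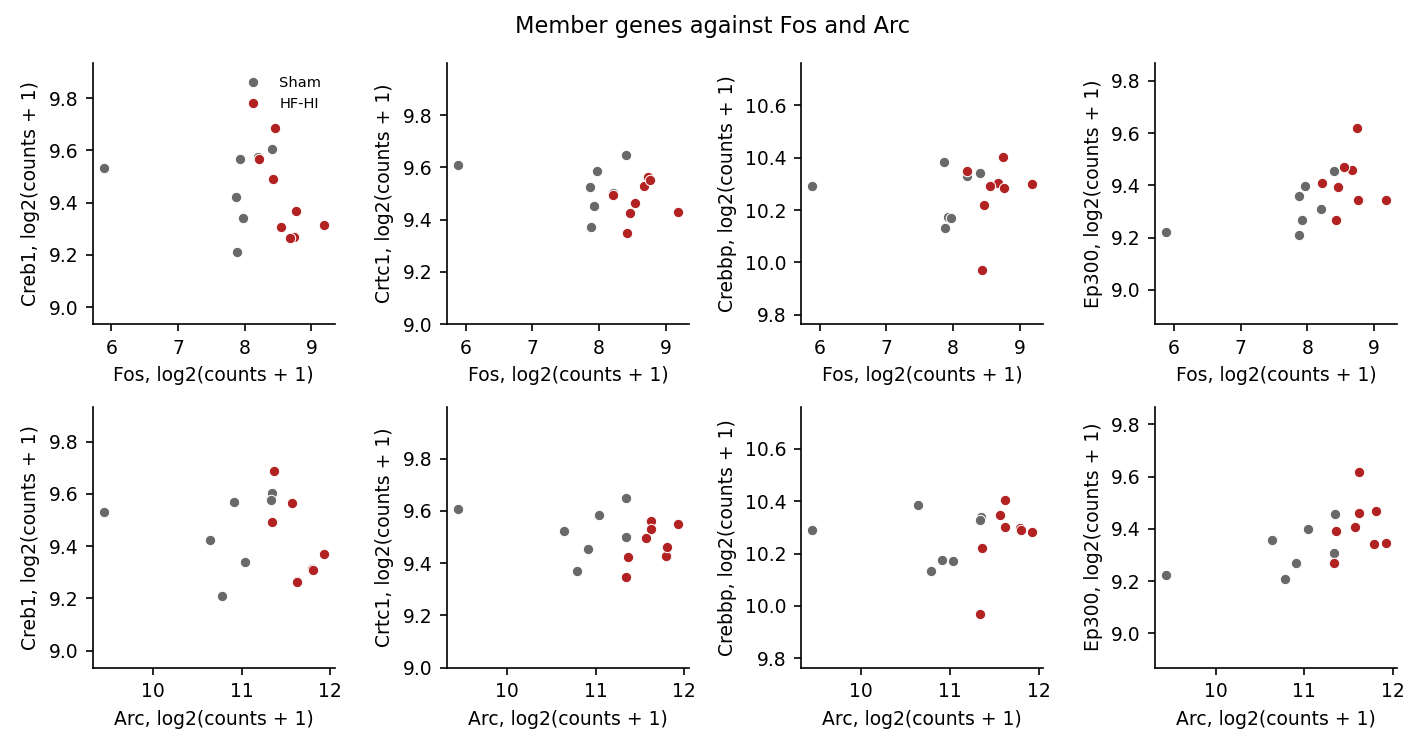
Log2 gene sums (normalized counts + 1) of Creb1, Crtc1, Crebbp and Ep300 against those of Fos (top row) and Arc (bottom row), a point per library (grey Sham, red HF-HI), each y axis spanning 1 log2 unit. The isolated point at the left is Sham replicate 2 with 58.1 Fos and 695 Arc normalized counts. Ep300 had r = 0.56 with Arc over both groups together, 0.58 within Sham and 0.16 within HF-HI.

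Among themselves, the coactivators had positive correlations, and those of Creb1 with them were positive in Sham and negative in HF-HI. None of the within-group values of Creb1 passed a permutation test, and the difference between groups was not tested. Crtc1 and Crebbp had r = 0.63 (permutation p = 0.00986; rho = 0.47, permutation p = 0.0793), and r was 0.26 without HF-HI replicate 2 and Sham replicate 6, the libraries farthest from the median. Within groups r was 0.55 in Sham (exact permutation p = 0.198) and 0.82 in HF-HI (exact permutation p = 0.00799), and 0.63 in HF-HI without replicate 2 (exact permutation p = 0.127). Crebbp and Ep300 had r = 0.57 (permutation p = 0.0291; rho = 0.60, permutation p = 0.0217), and 0.39 without the 2 libraries farthest from the median. Crtc1 and Ep300 had r = 0.41 (permutation p = 0.128; rho = 0.41, permutation p = 0.132), and 0.22 without the 2 farthest. Creb1 had r = 0.09 with Crtc1, −0.03 with Crebbp and −0.21 with Ep300. Within Sham these were 0.53, 0.58 and 0.29 (lowest exact permutation p = 0.168), and within HF-HI they were −0.48, −0.39 and −0.44 (lowest exact permutation p = 0.227). All of these values share library scaling.

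The genes most like each member, by Pearson r of log2 sums centred within groups over 15 libraries, were Wsb1 (0.79), Tmem256 (0.79) and Rpl37a (0.76) for Creb1 and Atp1b2 (0.86), Dmtn (0.83) and Plxna2 (0.82) for Crtc1. For Crebbp they were Cdk16 (0.90), Usf3 (0.89) and Srrm2 (0.87), and for Ep300 Dph3 (0.85), Dzip1 (0.83) and Prune2 (0.83). They are the highest among all listed genes and are given as a description. Without HF-HI replicate 2 the 3 values for Crebbp were 0.73 to 0.76, and those for the other members 0.75 to 0.83.

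Upstream of CREB, 30 of 31 listed kinase and cAMP signaling genes were measured, and 3 had higher and 1 had lower values after HF-HI at the unadjusted level of 0.05, beside 5.40% higher and 4.53% lower over all genes. Camk2a, the alpha subunit of calcium/calmodulin-dependent kinase II, had 7779 ± 392 normalized counts among Sham and 8585 ± 417 among HF-HI libraries (log2 difference 0.14, limma unadjusted p = 0.00118). Adcy1, a calcium-stimulated adenylyl cyclase, had 11210 ± 520 and 12185 ± 549 (0.12, limma unadjusted p = 0.00299). Camkk1, a kinase that activates CaMKI and CaMKIV, had 776 ± 42.4 and 862 ± 64.4 (0.15, limma unadjusted p = 0.00589). Prkar2b, a regulatory subunit of protein kinase A, was the lower one, with 730 ± 40.0 and 684 ± 40.4 (−0.09, limma unadjusted p = 0.0454). The median log2 difference of the list was −0.03, beside −0.01 over all genes.

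Of 12 CREB family factors 7 were measured and none passed, and their differences lay between −0.09 for Atf2 and 0.08 for Atf4. Crem and Atf1, the closest relatives of Creb1, were not analysed here. In the list of CRTC coactivators and their control, 1 of 12 measured genes was higher and none lower, a share near the 5.40% of all genes. This was Sik1, the salt-inducible kinase that phosphorylates CRTCs and is itself a CREB target, with 114 ± 23.1 normalized counts among Sham and 168 ± 24.5 among HF-HI libraries (log2 difference 0.56, limma unadjusted p = 3.6e-04, adjusted p = 0.136). Its relative Sik2 had 262 ± 34.2 and 295 ± 38.6 (0.17, limma unadjusted p = 0.0788), and Mark2 had 375 ± 32.1 and 343 ± 26.7 (−0.13, limma unadjusted p = 0.0573).

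Among 13 measured histone acetyltransferases and partners, which include Crebbp and Ep300, 1 was higher and none lower, beside 5.40% and 4.53% of all genes. Ncoa3, a nuclear receptor coactivator that binds CBP and p300, had 498 ± 28.6 in Sham and 540 ± 29.3 in HF-HI (0.11, limma unadjusted p = 0.0187). Among 12 histone deacetylases and CREB phosphatases, 1 was higher and 2 were lower, against the same shares. The catalytic subunits of protein phosphatase 2A differed in opposite directions, Ppp2ca with 2894 ± 89.8 in Sham and 2756 ± 101 in HF-HI (−0.07, limma unadjusted p = 0.0245) and Ppp2cb with 968 ± 45.4 and 1025 ± 49.6 (0.08, limma unadjusted p = 0.0414). The deacetylase Hdac2 had 504 ± 32.0 and 459 ± 41.5 (−0.14, limma unadjusted p = 0.0310).

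Most measured CREB targets had higher values after HF-HI, with a positive log2 difference in 21 and a negative one in 7. Of 28 measured targets out of 40, 16 were higher and 1 was lower at an unadjusted p under 0.05, beside 5.40% higher and 4.53% lower over all genes, and the median log2 difference was 0.35, beside −0.01 over all genes; none had an adjusted p under 0.1. Many of these targets are immediate early genes, and the list was written with earlier results of these data known, so its direction is not independent evidence. Nr4a3, an orphan nuclear receptor, had 157 ± 38.0 normalized counts among Sham and 291 ± 65.8 among HF-HI libraries (log2 difference 0.90, limma unadjusted p = 3.3e-05, adjusted p = 0.109). Dusp5, a phosphatase of nuclear ERK, had 103 ± 18.1 and 144 ± 14.6 (0.50, limma unadjusted p = 3.3e-04), and Ier5, an immediate early gene, had 568 ± 61.1 and 720 ± 90.3 (0.34, limma unadjusted p = 4.9e-04). The lower gene was Vgf, a neuropeptide precursor named here after its values were seen, with 945 ± 153 and 816 ± 100.4 (−0.21, limma unadjusted p = 0.0408). The other negative differences, named here likewise, were those of Nr4a2 (−0.11), Sst (−0.09), Scg2 (−0.08), Nptx2 (−0.05), Pcsk1 (−0.05) and Egr3 (−0.02). None of these reached a limma unadjusted p under 0.05. The number of higher targets was 13 with the striatal marker sum as a covariate and 16 with the log2 size factor.

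**Figure D5:**
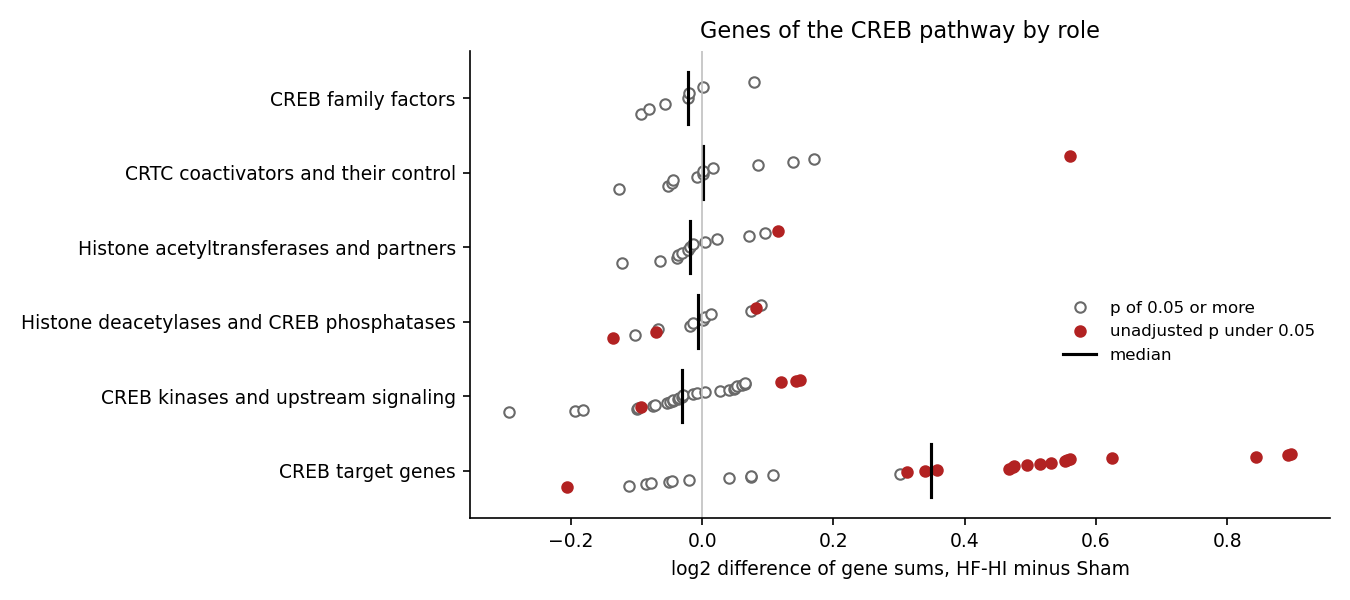
Log2 difference of gene sums (HF-HI minus Sham) for each measured gene of 6 lists of the CREB pathway, a point per gene, filled red where the limma unadjusted p is under 0.05, with a black line at the list median. The medians of the 5 lists of regulators lie between −0.03 and 0.00, and that of the CREB targets lies at 0.35.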

How the data were processed

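Total RNA of dissected cortex was sequenced as stranded, ribosomal RNA-depleted libraries. Per the labels and the study's methods, the authors aligned reads to mm10 with STAR, estimated counts per transcript with eXpress and deposited values on the log2 scale of the DESeq2 variance-stabilizing transformation, for 10370 transcripts with a mean of at least 107.9 normalized counts. The versions of STAR and eXpress, the annotation release and the use of strand in counting are not given in the sources used here.

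The transformation was inverted from the shared value of a zero count (9.81). In every library 100% of the values were then whole multiples of a single step (tolerance 0.1 reads), which gave size factors and reads. Of the transcripts, 10241 matched GENCODE M21. Group differences, gene sums as log2(sum + 1), transcript ratios and slopes were fitted with limma 3.58.1 (R 4.3.3, eBayes, with trend except for ratios) over the whole table, two-sided, with Benjamini-Hochberg adjustment over all features, at 0.1, and the unadjusted level of 0.05. Shares were compared by exact permutation and correlations by 100000 resamples (SciPy 1.17.1). The scripts were tested on simulated data.

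The members, the pathway and marker lists and the tests were chosen with earlier results of these data known. Named genes are all member, Fos and Arc transcripts, up to 4 genes per pathway list by unadjusted p, and the 3 genes most correlated with each member. Further CREB targets named outside this rule are marked. No RefSeq promoter entry was used for Arc. Same-numbered libraries were not paired (correlations of −0.14 to 0.09). Alternatives changed the libraries, covariates, weights, scaling, filter, pseudocount and model.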

Additional observations from a re-analysis of the deposited data

Results flagged for a closer look

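Of 70 groups of libraries examined, for the member transcripts, sums and shares, Fos, Arc and the named pathway genes, 8 held a library far from the others by Dixon's ratio, and chance gives this in about 1 in 20 groups. Crebbp (ENSMUST00000023165) had 1002 normalized counts in HF-HI replicate 2, while the other HF-HI libraries had 1192 to 1354. The same library was low for Mark2 (285, others 334 to 376) and Ncoa1 (1222, others 1440 to 1586) and high for Ppp2cb (1137, others 982 to 1049). Fos (ENSMUST00000021674) had 58.1 in Sham replicate 2, while the other Sham libraries had 233 to 337. Atf4 had 756 in HF-HI replicate 8 (others 842 to 915), Ppp2ca had 2716 in Sham replicate 4 (others 2881 to 2987), and Camkk1 had 997 in HF-HI replicate 7 (others 803 to 891).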

How the results depend on the processing

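Of 537 single differences, ratios, shares and slopes recomputed under alternatives, 448 kept their direction and their side of the unadjusted threshold. These include both mirrored ratios of Creb1 and of Crtc1. Of 193 counts of features, 166 stayed within 1.5 times the reported count, which does not say that the features were the same. Without HF-HI replicate 2 and with library weights the 2 member transcripts were Creb1-202 and Ep300. No member transcript had an adjusted p under 0.1 under any of them, where 0 was the count with all libraries and the settings reported. The number of member transcripts at an unadjusted p under 0.05, which was 2, came to 1 with each library centred on its median, 1 with quantile normalization, and 0 with log2 of normalized counts plus 1, with log2 of normalized counts plus 10, with voom on recovered reads, with the log2 size factor as a covariate and with the striatal marker sum as a covariate. With 1 library left out it ranged from 0 to 3. The number of member gene sums, which was 0, came to 1 (Ep300) with library weights and ranged from 0 to 1 with 1 library left out. The number of transcript ratios past that level, which was 0, came to 2 with a pseudocount of 10 and ranged from 0 to 4 with 1 library left out. Each gene counts here as 2 mirrored ratios. Without the group term, the number of member genes following Fos came to 1 and that following Arc to 1, both Ep300, with no share of all genes given for that fit. Differences near 0 changed sign. With the log2 size factor these were Crtc1-204 (−0.0041) and the Creb1 sum (0.018), with the striatal sum Crebbp as a transcript (−0.016) and as a sum (−0.032), and without the group term the slope of Crtc1 on Arc (−0.028). With 1 library left out, Crebbp ranged from −0.0080 to 0.023 as a transcript and from −0.017 to 0.047 as a sum, its slope on Fos from −0.0017 to 0.15 and on Arc from −0.00027 to 0.20, and the slope of Crtc1 on Fos from −0.041 to 0.11 and on Arc from −0.027 to 0.19. The highest of these slopes were without Sham replicate 2.

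Libraries shared replicate numbers across groups but did not deviate together (correlations of −0.14 to 0.09, and 1 of 7 Sham libraries correlated best with its own number). With a replicate block, 1 member transcript and 1 gene sum passed the unadjusted level, both Ep300 (limma unadjusted p = 0.0349 and 0.0277), and those of Creb1 did not. Ep300 has a single listed transcript, so its transcript and sum hold the same counts and are not separate results. The shares of all transcripts and genes past that level with the block are not given here. The block turned Crebbp (−0.0033 as a transcript, −0.0074 as a sum) and the slopes on Fos of Creb1 (0.022), Crebbp (−0.14) and Ep300 (−0.035) and on Arc of Creb1 (0.046), Crebbp (−0.18), Crtc1 (−0.036) and Ep300 (−0.026). The cause of these changes was not tested. Depth limits the Creb1 shares most in HF-HI replicates 4 and 7, with 308 and 370 Creb1 reads.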
